A study of Mus with 6 samples.

Results

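The genes described here are 41 nuclear genes for subunits of respiratory complexes II, III and IV and of ATP synthase (complex V), including an inhibitor and a supercomplex factor, out of 35304 Ensembl gene IDs in the count table. They were chosen by a list of IDs that pairs each ID with a symbol, not by a measured value: 4 genes of complex II, 9 of complex III, 12 of complex IV and 16 of complex V. All 41 had counts in every library and all 41 passed the filter on low counts. The ATP synthase genes carry their older names, Atp5a1 to Atp5g3.

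Expression was measured by RNA sequencing in 4T1, a mouse mammary carcinoma cell line grown in RPMI medium with serum. There were 3 untreated samples and 3 samples exposed for 24 h to 10 µg/mL isopimaric acid (IPA), a plant diterpene acid that regulates ion channels and, by the series title, acts on pathways that include oxidative phosphorylation. No vehicle is named for the untreated samples, all 6 come from 1 cell line, and the labels do not say whether replicates were separate cultures. The p-values therefore weigh a difference against sample-to-sample spread that may be technical only. In such bulk samples, fewer cells of a kind and less RNA per cell cannot be told apart. Library totals ran from 3410411 counts (IPA replicate 1) to 58924711 (untreated replicate 2). Markers of the cell line were not analysed here, because the IDs of genes outside the list are not paired with names.

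In the inner mitochondrial membrane, complex II (succinate dehydrogenase) passes electrons from succinate to ubiquinone. Complex III passes them on to cytochrome c, and complex IV passes them to oxygen. Complexes III and IV pump protons as they do so, and ATP synthase lets protons flow back through its Fo part to make ATP in its F1 part. Complex II is built wholly from nuclear genes, while the other 3 join nuclear subunits to subunits encoded in mitochondrial DNA. All genes described here are of the nuclear kind, and they lie on 18 chromosomes.

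No member was called higher or lower with IPA by edgeR, over all 6 libraries or without untreated replicate 2. A gene was called at an adjusted p under 0.05 in edgeR's quasi-likelihood test over all IDs. Over all 6 libraries 0 of 41 members were called in either direction, against a background of 0% of 24935 IDs tested. Over the same 6 libraries DESeq2 called 0 of the 36 members to which it gave an adjusted p, where 0.119% of all such IDs were called higher and 0.341% lower. Limma-voom called 0 of 41 members, beside 0% of IDs in either direction. With sample quality weights limma-voom again called 0 of 41, where 1.97% of IDs were called higher and 3.03% lower. Without untreated replicate 2, which brought the biological coefficient of variation over all IDs from 0.178 to 0.57, again 0 of 41 were called, where 1.26% of 25592 IDs were called higher and 2.2% lower (322 and 564 IDs, or 691 and 327 when scaled by library totals). At an unadjusted p under 0.05 over all 6 libraries, 0 members were higher and 5 lower (12.2%), beside 1.88% and 4.38% of all IDs. Without untreated replicate 2 these counts were 0 higher and 7 lower (17.1%), beside 6.77% and 10.1%. No test over the list was made.

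The intervals around the fold changes were narrower with 5 libraries than with all 6. Without untreated replicate 2, the 95% confidence interval of the fold change lay between 0.5 and 2 for 41 of 41 members. It lay within 1.5-fold of no change for 28 of 41. The lowest bound was 0.572-fold, for Uqcrb, and the highest was 1.91-fold, for Uqcrq. Over all 6 libraries 12 of the 41 intervals lay within 2-fold, 28 reached a level 2-fold lower or beyond, and 1 reached 2-fold higher. These intervals are for single genes, with no adjustment for their number.

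The median log2 fold change of the 41 members was -0.80 over all 6 libraries and -0.072 without untreated replicate 2, beside medians over all IDs tested of -0.080 and -0.042. By complex, the medians over all 6 libraries were -0.26 (II), -0.73 (III), -1.31 (IV) and -0.66 (V). Without untreated replicate 2 they were -0.089, -0.039, -0.18 and -0.051. Scaling by library totals instead of TMM factors moved the median of all IDs over all 6 libraries from -0.080 to 0.13 and that of the members to -0.45. With library totals and no untreated replicate 2, the medians by complex were 0.015 (II), 0.063 (III), -0.076 (IV) and 0.054 (V), so those of II, III and V changed sign, beside a median of all IDs of 0.062. The sign was negative in 34 of 41 members (82.9%) over all 6 libraries, where 54.5% of all IDs were negative. It was negative in 26 of 41 (63.4%) without that library, where 54.2% of all IDs were negative.

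The difference over all 6 libraries rested on untreated replicate 2. Summed over the 41 members, the share of a library's counts was 0.31%, 0.77% and 0.373% in untreated replicates 1, 2 and 3. It was 0.368%, 0.351% and 0.335% in IPA replicates 1, 2 and 3. The group values were 0.484 ± 0.25% untreated and 0.351 ± 0.0167% with IPA (SD, n = 3 each). With untreated replicates 1 and 3 alone the untreated mean was 0.341%, and all 3 IPA libraries lay between these 2. IPA minus untreated was then 0.00992 percentage points, and -0.0145 when the 50 most abundant IDs were left out of the totals, so its sign depended on the denominator. Complex IV had the widest gap: its genes took 0.383% of the counts of untreated replicate 2 and 0.0938% to 0.117% of the counts of the other 5 libraries. Complex II took 0.0259% in that library, inside the range of 0.0213% to 0.0264% of the others.

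**Figure D1:**
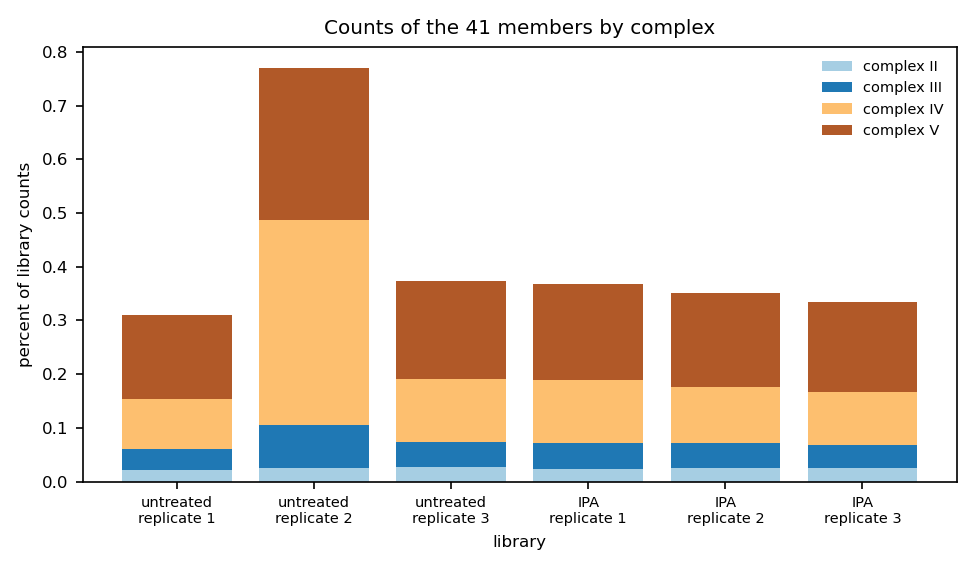
Percent of all counts of each library (vertical axis, linear, from 0) taken by the 41 members, stacked by complex, for the 6 libraries on the horizontal axis. Untreated replicate 2 reaches 0.77% and the other 5 libraries lie between 0.31% and 0.373%.

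Levels below are CPM normalised with TMM factors, and compare libraries for 1 gene, not genes with each other. Untreated replicate 2 lay over 2-fold above the mean of untreated replicates 1 and 3 for 28 of 41 members (68.3%), against 24.7% of all IDs tested. It lay over 2-fold below that mean for 2 members (4.88%), against 30.6% of all IDs. The 2 were Cyc1, at 0.483 times the mean, and Atp5j, a peripheral stalk subunit of ATP synthase, at 0.415 times. At the other end stood Atp5e, the F1 epsilon subunit, at 22.3 times, Cox7c at 11.3 times and Atp5k at 9.17 times. As this is 1 library, no test of it was made, and its TMM factor was 0.754 where those of the other 5 ran from 1.02 to 1.11. The IDs behind the shares above were not matched to the members in level, and some had no counts in untreated replicate 2.

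Members of 1 complex differed widely in that library. In F1 of ATP synthase, the catalytic core, the ratios were 1.37 for Atp5a1 (alpha), 0.784 for Atp5b (beta), 1.56 for Atp5c1 (gamma), 2.21 for Atp5d (delta) and 22.3 for Atp5e. In complex III the large core proteins Uqcrc1 and Uqcrc2 stood at 1.05 and 0.658, and Cyc1 and Uqcrfs1 at 0.483 and 2.28. The small subunits Uqcrh, Uqcrb, Uqcrq, Uqcr11 and Uqcr10 stood at 7.28, 4.83, 3.86, 3.51 and 3.43. Among small subunits of complex IV, Cox7c stood at 11.3 and Cox8a at 0.646. In complex II, Sdha and Sdhc were at 1.05 and 0.836, and Sdhb and Sdhd at 2.47 and 2.12. The median ratio was 4.89 in complex IV, 3.43 in complex III, 2.69 in complex V and 1.59 in complex II, beside 0.912 over all IDs tested. That background includes IDs with no counts in untreated replicate 2. Leaving those out, the median log2 ratio of the IDs was 0.041. What sets this library apart was not tested.

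**Figure D2:**
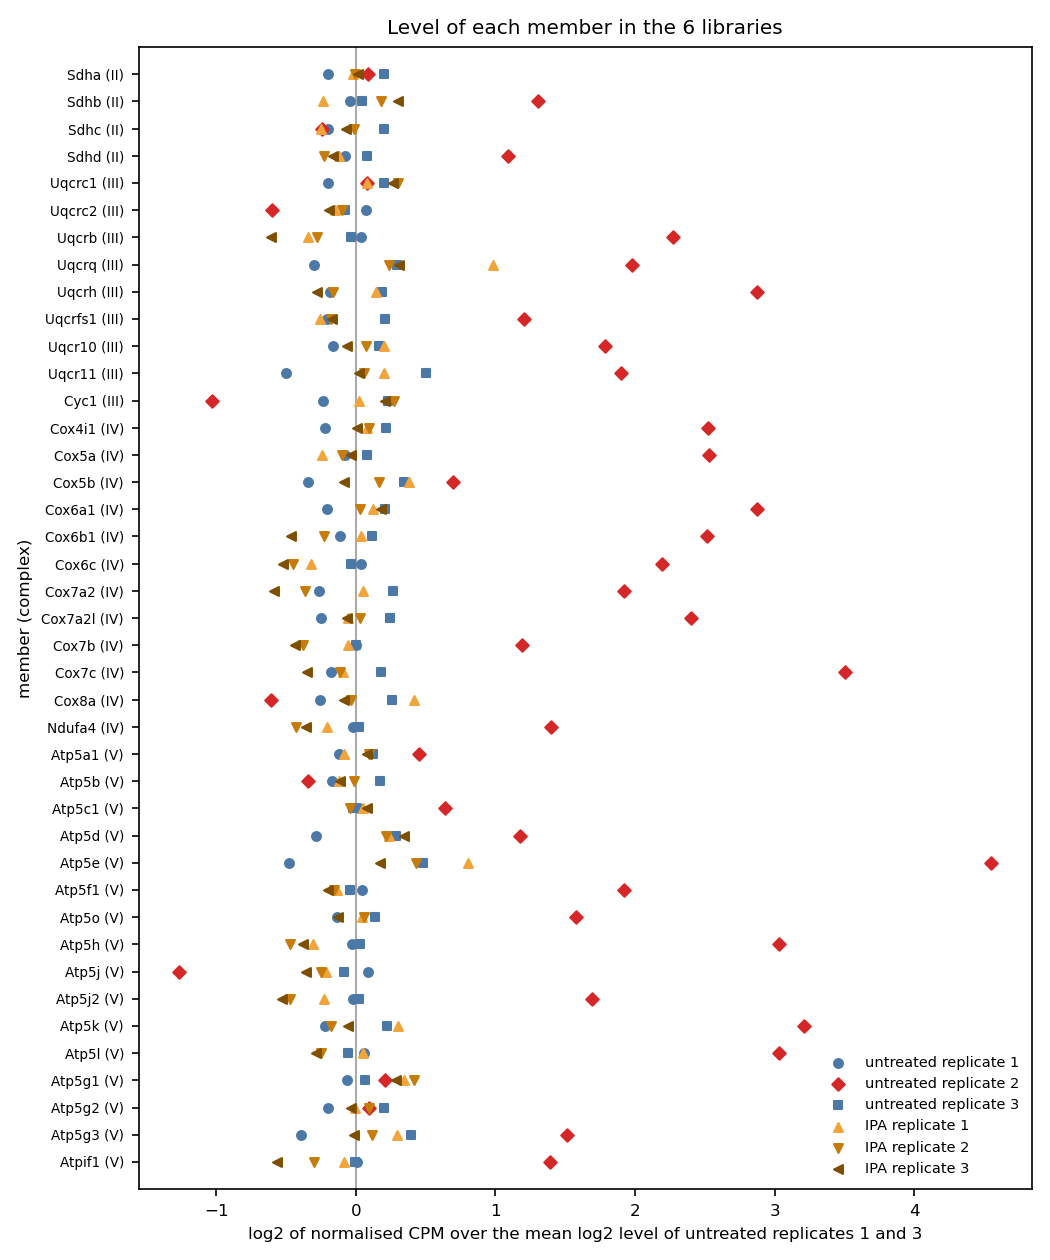
Level of each of the 41 members (rows, grouped by complex) in each library, as the log2 of its normalised CPM minus the mean log2 level of untreated replicates 1 and 3 (horizontal axis, 0 is that mean). Untreated replicate 2 (red diamonds) spans -1.27 for Atp5j to 4.55 for Atp5e, while every other library stays between -0.61 and 0.98.

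Complex II showed no call in either comparison. Sdha (ENSMUSG00000021577, chromosome 13, 74322255 to 74350240, GRCm38.p6) encodes the flavoprotein that oxidises succinate. It stood at 89, 109 and 118 CPM in untreated replicates 1, 2 and 3 and at 101, 102 and 103 CPM in IPA replicates 1, 2 and 3. The IPA libraries lay within the untreated range, and untreated replicate 2 was not set apart for this gene. The log2 fold change was -0.0448 ± 0.19 (SE; edgeR adjusted p = 0.94) over all 6 libraries and -0.0411 ± 0.14 (edgeR adjusted p = 0.934) without untreated replicate 2, with a 95% interval of 0.796 to 1.19-fold in the latter.

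Sdhc (ENSMUSG00000058076) and Sdhd (ENSMUSG00000000171, chromosome 9, 50596340 to 50603849) encode the membrane anchors that hold the ubiquinone site, and were the highest and the lowest of complex II over all 6 libraries. Sdhd stood at 41, 92.3 and 45.9 CPM untreated and 39.8, 37 and 38.6 CPM with IPA. Its groups did not overlap, and untreated replicate 2 stood highest. The log2 fold change was -0.64 ± 0.34 (edgeR adjusted p = 0.657) with that library and -0.20 ± 0.15 (edgeR adjusted p = 0.556) without it. Sdhc was at 38.3, 37.1 and 50.5 CPM untreated and 36.9, 43.5 and 41.8 CPM with IPA, which overlapped, with a log2 value of -0.14 ± 0.16 without that library. The iron-sulfur subunit Sdhb stood at 41.5, 106 and 44 CPM and 36.4, 48.5 and 52.8 CPM, again overlapping.

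Among the genes of complex III, Cyc1 (ENSMUSG00000022551, chromosome 15, 76343513 to 76346260) and Uqcrfs1 (ENSMUSG00000038462, chromosome 13, 30540312 to 30545316) encode cytochrome c1 and the Rieske iron-sulfur protein, which carry electrons. Cyc1 stood at 23.6, 13.6 and 32.6 CPM untreated and 28.2, 33.5 and 32 CPM with IPA. The untreated values reached from below to just under the highest IPA value, so the groups overlapped. Cyc1 had the highest log2 fold change of all 41 members over all 6 libraries, 0.43 ± 0.34 (SE; edgeR adjusted p = 0.689), and 0.14 ± 0.17 (edgeR adjusted p = 0.78) without untreated replicate 2.

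Uqcrfs1 was at 38.1, 102 and 51 CPM untreated and 36.9, 39 and 39.1 CPM with IPA. The IPA libraries sat close to untreated replicate 1, and the log2 fold change was -0.73 ± 0.37 over all 6 libraries and -0.24 ± 0.16 without untreated replicate 2 (edgeR adjusted p = 0.657 and 0.493). Uqcrh (ENSMUSG00000063882, chromosome 4, 116066965 to 116075070), the hinge protein that helps cytochrome c1 meet cytochrome c, had the lowest log2 fold change of complex III over all 6 libraries, though not without untreated replicate 2, where Uqcrb was lowest. It stood at 52.7, 440.0 and 68.2 CPM untreated and 66.2, 53.5 and 49.5 CPM with IPA. The log2 value was -1.73 ± 0.80 over all 6 libraries and -0.14 ± 0.16 without untreated replicate 2, with edgeR adjusted p-values of 0.657 and 0.745. Pseudogenes named Uqcrh-ps1 and Uqcrh-ps2 are annotated for this gene, so reads counted for it are uncertain.

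The other members of complex III were the core proteins Uqcrc1 and Uqcrc2 and 4 small subunits. Uqcrq, a small subunit that lies beside cytochrome b, had the highest log2 fold change of all 41 members without untreated replicate 2. It stood at 11.5, 55.8 and 17.4 CPM untreated and 28, 16.7 and 17.5 CPM with IPA, and its log2 value was 0.44 ± 0.24 (SE) in that comparison, at an edgeR adjusted p of 0.38. The highest IPA level came from IPA replicate 1, the shallowest library, with 106 counts. IPA replicates 2 and 3 lay close to untreated replicate 3. The groups overlapped in both comparisons, and the span of Gdf9 overlaps that of Uqcrq. Uqcrb, another small subunit, stood at 27.5, 129 and 26.1 CPM untreated and 21.1, 22.1 and 17.6 CPM with IPA, with every IPA library below every untreated one. Its value of -0.43 ± 0.18 (SE) without that library had an edgeR adjusted p of 0.209. Uqcrc1 and Uqcrc2 stood at 0.19 ± 0.14 and -0.17 ± 0.13 in the same comparison, and Uqcr10 and Uqcr11 at 0.0268 ± 0.18 and -0.0389 ± 0.25.

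Complex IV had the lowest median over all 6 libraries, and edgeR called none of its 12 members with or without untreated replicate 2. Without that library DESeq2 and limma-voom called Cox6c lower, with values given below. Cox4i1 (ENSMUSG00000031818, chromosome 8, 120668225 to 120674209), the subunit 4 form of most tissues, stood at 191, 1279.8 and 259 CPM untreated and 235, 237 and 223 CPM with IPA. The 3 IPA libraries lay between untreated replicates 1 and 3. The log2 fold change went from -1.31 ± 0.70 (SE; edgeR adjusted p = 0.657) to 0.024 ± 0.14 (edgeR adjusted p = 0.966) when untreated replicate 2 was left out, with a 95% interval of 0.828 to 1.25-fold.

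Cox7c (ENSMUSG00000017778, chromosome 13, 86044798 to 86046795), a small membrane subunit, had the lowest log2 fold change of complex IV over all 6 libraries. It stood at 51.9, 668 and 66.7 CPM untreated and 55.1, 54.5 and 46.1 CPM with IPA. The log2 fold change was -2.34 ± 0.97 with untreated replicate 2 and -0.22 ± 0.15 without it (edgeR adjusted p = 0.657 and 0.515). In the annotation a small nucleolar RNA overlaps the span of this gene and a pseudogene, Cox7c-ps1, is listed, so its reads are uncertain too. Cox8a (ENSMUSG00000035885), another small subunit, had the highest log2 fold change of the complex over all 6 libraries, at 0.28 ± 0.28 (SE; edgeR adjusted p = 0.753). With untreated replicate 2 left out it was at 0.0617 ± 0.17 (edgeR adjusted p = 0.919), below Cox6a1 and Cox5b. The levels of Cox8a, 93.8, 73.7 and 134 CPM untreated and 150.1, 109.8 and 106 CPM with IPA, overlapped, and it was one of few members lowest in untreated replicate 2.

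Cox7a2l (ENSMUSG00000024248, chromosome 17, 83501917 to 83514333) encodes a protein related to subunit 7a that links complexes III and IV into supercomplexes. It stood at 51.2, 320.4 and 72.1 CPM untreated and 58.5, 61.9 and 58.2 CPM with IPA, and the IPA libraries lay between untreated replicates 1 and 3. The log2 fold change without untreated replicate 2 was -0.0725 ± 0.15 (SE; edgeR adjusted p = 0.883), against -1.31 ± 0.67 with it.

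Of the other complex IV subunits, Cox5a and Cox5b bind near the mitochondrially encoded core and had log2 fold changes of -0.14 ± 0.14 and 0.0747 ± 0.20 (SE) without untreated replicate 2. Cox6a1 and Cox6b1 were at 0.0766 ± 0.14 and -0.25 ± 0.17, and Cox7a2 was at -0.36 ± 0.20. The same 5 genes stood at -1.50 ± 0.70, -0.13 ± 0.31, -1.52 ± 0.79, -1.57 ± 0.71 and -1.24 ± 0.57 over all 6 libraries. Cox5b was the least displaced of them, and untreated replicate 2 lay at 1.57 times the mean of the other untreated libraries for it.

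Cox6c, Ndufa4, Cox7b, Atp5h, Atp5j2, Uqcrb and Atpif1 were the 7 members with an unadjusted edgeR p under 0.05 and a lower level with IPA without untreated replicate 2. They were named after their values were seen, except Ndufa4 and Atpif1. The 5 over all 6 libraries were Uqcrb, Cox6c, Cox7c, Atp5h and Atp5j2. Cox6c (ENSMUSG00000014313, chromosome 15, 35931976 to 35938246), a nuclear subunit of complex IV, came nearest to a call. It stood at 109, 486 and 104 CPM untreated and 84.9, 77.4 and 73.8 CPM with IPA, so that every IPA library lay below every untreated one. The change without untreated replicate 2 was -0.46 ± 0.13 on the log2 scale (SE), a 95% interval of 0.601 to 0.881-fold, with an edgeR adjusted p of 0.06. Over all 6 libraries it was -1.57 ± 0.62 (edgeR adjusted p = 0.657).

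Ndufa4 (ENSMUSG00000029632, chromosome 6, 11900372 to 11907450), first described in complex I and later assigned to complex IV, stood at 99, 265 and 102 CPM untreated and 87.3, 74.6 and 78.5 CPM with IPA. Here too the groups did not overlap. Leaving out untreated replicate 2, the log2 fold change was -0.36 ± 0.13 (SE; edgeR adjusted p = 0.15), and with it -0.96 ± 0.41 (edgeR adjusted p = 0.657). Cox7b, on the X chromosome, was at 53.1, 121 and 53.2 CPM and 51.2, 40.9 and 39.4 CPM, with a log2 fold change of -0.32 ± 0.15 (edgeR adjusted p = 0.282) without that library.

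Over all 6 libraries the groups did not overlap for 9 of 41 members with IPA lower, beside 10.8% of all IDs, and for 1 with IPA higher, beside 9.49%. The 9 were Sdhd, Uqcrb, Cox6c, Cox7b, Ndufa4, Atp5f1, Atp5h, Atp5j2 and Atpif1. The single member with IPA higher was Atp5g1. Untreated replicate 2 was the highest library for 31 of 41 members, but for 9421 of 24935 IDs. Without that library the groups did not overlap for 11 of 41 members with IPA lower, beside 4550 of 24935 IDs. Uqcrc2 and Atp5j were then added to the list. Atp5g1 was still the only member with IPA higher, beside 3544 IDs. Other tools called a few members among the 5 libraries. DESeq2 called 1 member lower, Cox6c, beside 3.86% of the IDs with an adjusted p, with an adjusted p of 0.042. Limma-voom called 3 lower, beside 3.94% of IDs, with adjusted p-values of 0.0232 for Cox6c, 0.0462 for Atp5h and 0.0339 for Atp5j2. With IPA replicate 1, the shallowest library, also left out, edgeR called 1 member lower, Cox6c, beside 3.05%. In that comparison of 2 against 2 libraries its log2 fold change was -0.48 ± 0.14 (SE; edgeR adjusted p = 0.0492).

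**Figure D3:**
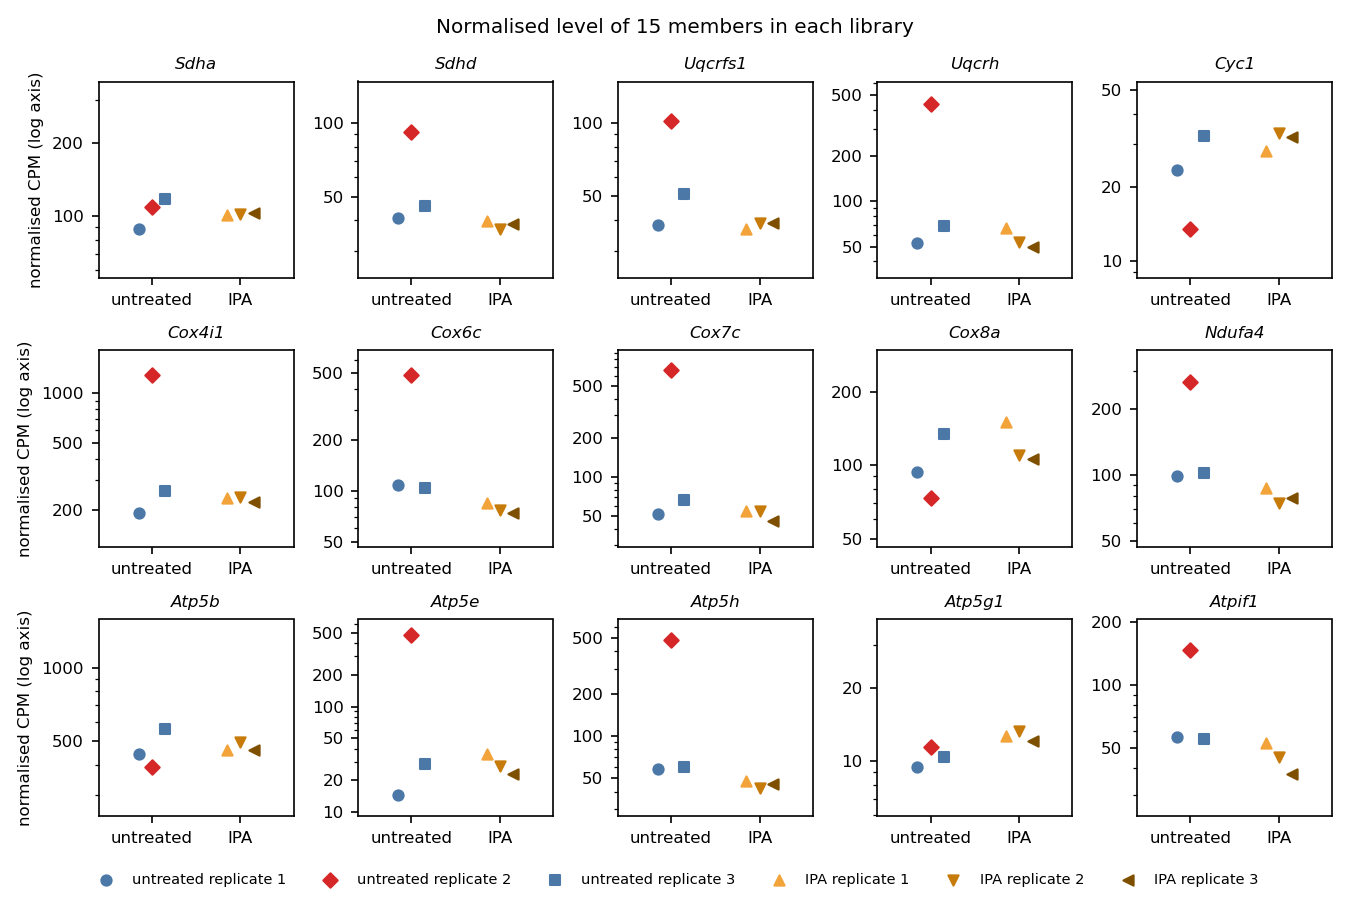
Normalised CPM (logarithmic axes) of 15 members in the 3 untreated and 3 IPA libraries, 1 point per library. Cox6c, Ndufa4, Atp5h and Atpif1 show every IPA point below every untreated point, Atp5g1 shows every IPA point above, and the red diamond of untreated replicate 2 lies apart in most panels.

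No subunit of the F1 head of ATP synthase was called in either comparison. Atp5b (ENSMUSG00000025393, chromosome 10, 128083307 to 128090388), the beta subunit that carries the catalytic sites, stood at 442, 394 and 561 CPM untreated and 458, 494 and 461 CPM with IPA. The 3 IPA libraries lay between untreated replicates 1 and 3, and the log2 fold change was -0.11 ± 0.14 (SE; edgeR adjusted p = 0.789) without untreated replicate 2 and 0.0168 ± 0.23 with it. The alpha and gamma subunits, Atp5a1 and Atp5c1, had log2 fold changes of 0.00903 ± 0.13 and 0.00955 ± 0.13 without that library. Atp5d, the delta subunit, stood at 83, 229 and 124 CPM untreated and 119.7, 118 and 129 CPM with IPA, where untreated replicate 1 was the lowest library. The spans of Atp5a1 and Atp5d overlap those of Haus1 and Cbarp.

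Atp5e (ENSMUSG00000016252, chromosome 2, 174461075 to 174464101), the epsilon subunit, reversed its sign with 1 library. It stood at 14.6, 477 and 28.3 CPM untreated and 35.3, 27.4 and 22.9 CPM with IPA. The value was -2.61 ± 1.23 on the log2 scale (edgeR adjusted p = 0.657) over all 6 libraries, the lowest of the 41 members, and 0.35 ± 0.25 (edgeR adjusted p = 0.558) without untreated replicate 2. Untreated replicate 1 was the lowest library, and untreated replicate 3 lay within the range of the IPA libraries.

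The peripheral stalk holds F1 still against the turning rotor. Of its genes, Atp5h (ENSMUSG00000034566, chromosome 11, 115415691 to 115419919; subunit d) stood at 57.7, 482 and 60.3 CPM untreated and 47.7, 42.5 and 45.3 CPM with IPA, groups that did not overlap. Its log2 fold change was -0.41 ± 0.14 (SE; edgeR adjusted p = 0.102) without untreated replicate 2 and -2.15 ± 0.84 (edgeR adjusted p = 0.657) with it. Atp5j (coupling factor 6) was lowest in untreated replicate 2, and stood at 45.5, 17.8 and 40.2 CPM untreated and 36.9, 36 and 33.4 CPM with IPA. The log2 value was -0.30 ± 0.15 (edgeR adjusted p = 0.33) without that library, and its span overlaps that of Gabpa, so reads may be shared if strand was not used. Atp5f1 (subunit b) and Atp5o (the oligomycin sensitivity protein) had log2 fold changes of -0.19 ± 0.13 and -0.0409 ± 0.16 without that library.

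Of the 3 small membrane subunits of Fo, Atp5j2 (subunit f; ENSMUSG00000038690) stood at 51.7, 169.7 and 53.2 CPM untreated and 44.8, 37.8 and 36.4 CPM with IPA, without overlap. Without untreated replicate 2 it had a log2 value of -0.44 ± 0.15 (SE; edgeR adjusted p = 0.107), against -1.21 ± 0.49 with that library. Atp5k and Atp5l (subunits e and g), for which pseudogenes are annotated, were at -0.0604 ± 0.25 and -0.20 ± 0.16 in that comparison. The smallest count of any member in any library was 41, for Atp5k in IPA replicate 1.

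The rotor ring of ATP synthase is made of copies of 1 mature protein, subunit c, which Atp5g1, Atp5g2 and Atp5g3 all encode behind different mitochondrial targeting peptides. Atp5g1 (ENSMUSG00000006057, chromosome 11, 96072793 to 96075694) stood at 9.51, 11.5 and 10.4 CPM untreated and 12.7, 13.2 and 12.1 CPM with IPA, every IPA library above every untreated one. Its log2 fold change was 0.28 ± 0.25 (SE; edgeR adjusted p = 0.723) over all 6 libraries and 0.32 ± 0.22 (edgeR adjusted p = 0.502) without untreated replicate 2, so it was not called in either. Atp5g2 (ENSMUSG00000062683, chromosome 15, 102662868 to 102671047) was at 77.2, 94.7 and 102 CPM and 88.3, 95 and 86.8 CPM, with a log2 fold change of -0.015 ± 0.14 without that library. Atp5g3 (ENSMUSG00000018770, chromosome 2, 73908447 to 73912464) was at 35.5, 133 and 61.2 CPM and 57.2, 50.7 and 46.3 CPM, with 0.0479 ± 0.19 in the same comparison.

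As a share of the reads of these 3 genes, which compares libraries and not genes, Atp5g1 took 7.78%, 4.8% and 5.98% in untreated replicates 1, 2 and 3 and 8.0%, 8.33% and 8.36% in IPA replicates 1, 2 and 3. The groups did not overlap (6.19 ± 1.5% and 8.23 ± 0.199%, SD, n = 3 each), and the untreated mean without replicate 2 was 6.88%. However, the 95% Wilson intervals of all 3 IPA libraries cover the 7.78% of untreated replicate 1. They were 6.09% to 10.4% (from 600 reads), 7.73% to 8.98% and 7.70% to 9.07% in IPA replicates 1, 2 and 3. Atp5g3 took 29.1%, 55.7% and 35.2% in the untreated libraries and 36.2%, 31.9% and 31.9% with IPA. Untreated replicate 2 held the highest share of Atp5g3 and the lowest shares of Atp5g1 and Atp5g2. Intervals cover counting error only.

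**Figure D4:**
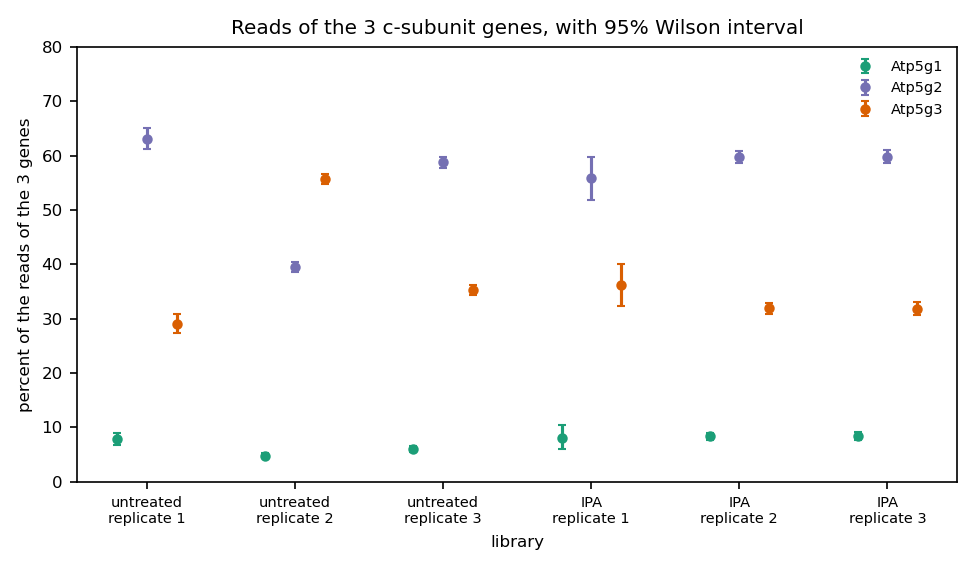
Percent of the summed reads of Atp5g1, Atp5g2 and Atp5g3 that each gene took (vertical axis, with 95% Wilson interval for counting error) in the 6 libraries. Atp5g2 lies between 55.8% and 63.2% outside untreated replicate 2 and at 39.5% in it, where Atp5g3 reaches 55.7%.

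Atpif1 (ENSMUSG00000054428, chromosome 4, 132530555 to 132535450) encodes the inhibitor that stops ATP synthase from running backwards and splitting ATP. It stood at 56.2, 146 and 55.5 CPM untreated and 52.7, 45.4 and 37.8 CPM with IPA. Every IPA library lay below every untreated one, with IPA replicate 1 close to untreated replicates 1 and 3. Its log2 value was -0.34 ± 0.15 (SE; edgeR adjusted p = 0.257) without untreated replicate 2 and -0.93 ± 0.42 (edgeR adjusted p = 0.657) with it.

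**Figure D5:**
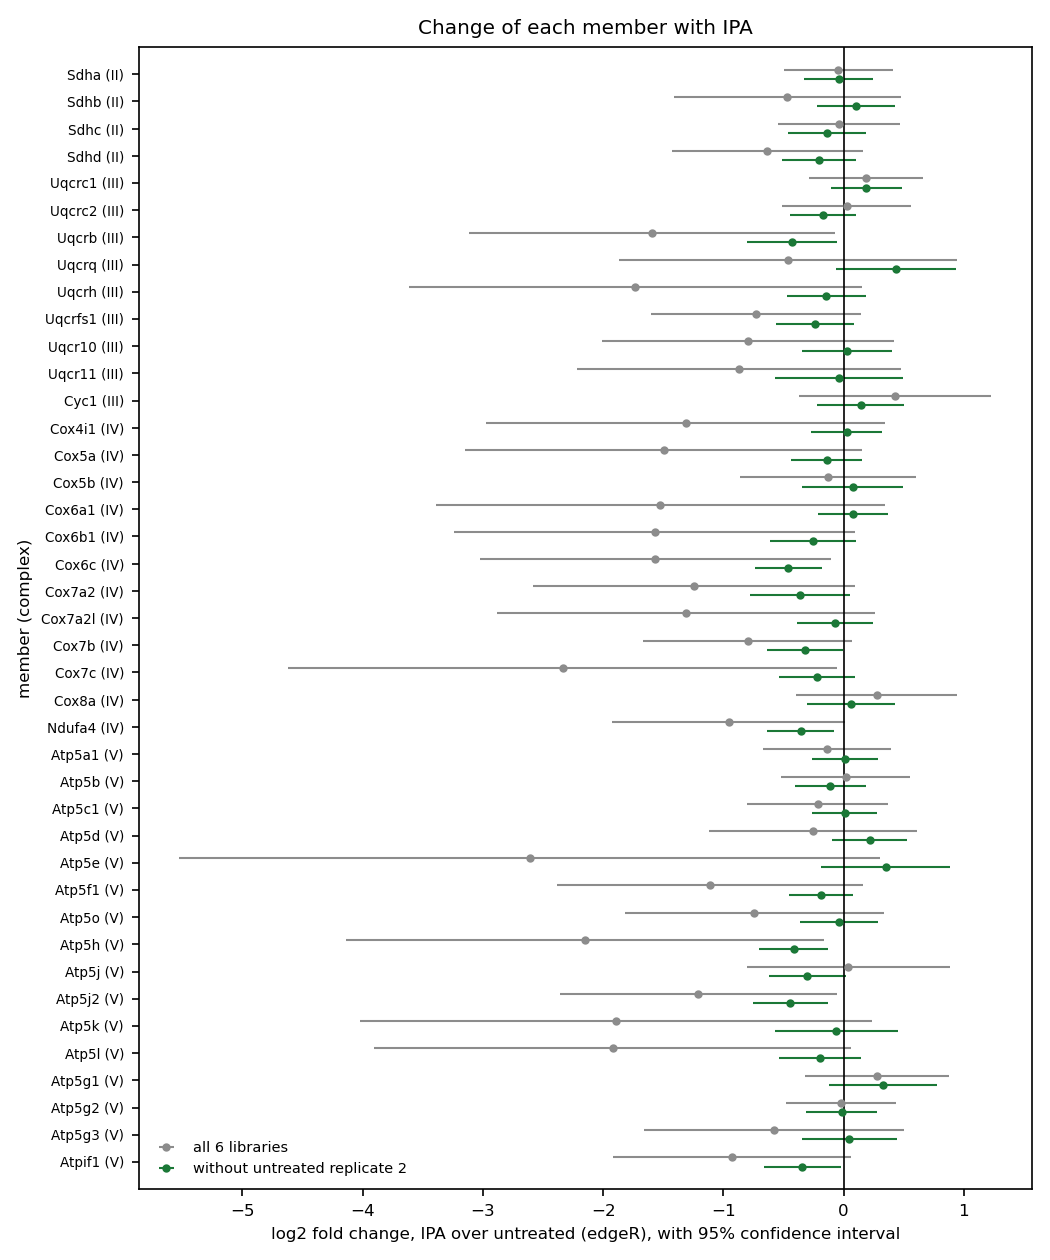
Log2 fold change of IPA over untreated for each member (rows), with its 95% confidence interval from edgeR, over all 6 libraries (grey) and without untreated replicate 2 (green). The green intervals all lie within 2-fold, and 7 of them exclude 0, all on the lower side, with 0 of 41 passing the adjusted threshold.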

How the data were processed

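Per the file headers and values, the deposited table holds raw read counts for 35304 Ensembl IDs in 6 libraries. The submitters' processing notes name the builds GRCm38 and mm10; the aligner, the counter and its annotation were not given in the sources used here, nor whether strand was used or reads with several matches were kept. Groups came from the sample titles; the IPA columns carry a shorter abbreviation, matched by letters and number. Positions came from a RefSeq table of GRCm38.p6, by symbol (41 of 41 matched). For 13 members the span of another gene overlaps their own. For 6 of them, Uqcrc2, Uqcrq, Cox7a2, Atp5a1, Atp5d and Atp5j, a protein-coding gene does so. A pseudogene carries the symbol of 7 members: Uqcrh, Cox5b, Cox7c, Atp5c1, Atp5f1, Atp5k and Atp5l. Reads counted for all these members are uncertain to that extent. No other ID had counts within 2% of a member's in every library. Among RefSeq entries, 0 of 49997 carry an Ensembl ID, so 12 lists of related genes and cell markers, fixed by symbol, were not analysed here, nor were promoter motifs or protein sequences.

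IPA was compared with untreated by edgeR 4.0.16 (robust glmQLFit, glmQLFTest, TMM, filterByExpr) in R 4.3.3, with Benjamini-Hochberg adjustment over all IDs tested. The SE is the size of the log2 fold change divided by the square root of F. CPM values use the TMM factors. By raw library totals, without TMM factors, a depth of 3 counts was 0.0509 to 0.88 CPM. The smallest count of a member was 41. Counts were also simulated at the depths of the libraries, with the same mean and dispersion of an ID in every library. Changed IDs were drawn only from those above a minimum level. Over all 6 libraries (23946 IDs), edgeR recovered 0 of 100 changes of 2-fold and 0 of 100 of 4-fold. There the spread that untreated replicate 2 brings was shared by all libraries, so this is not the power in the real data. Without untreated replicate 2 it recovered 79 and 100 of 100 (24864 IDs, 19 false calls). That run too drew on dispersions estimated from the libraries themselves, so it is not the power in the real data either. The list and every choice were made with earlier results of these data known. Members given in full were any called, the highest and lowest of each complex over all 6 libraries, 10 set by name, and those called under an alternative, the last chosen after their values were seen, as were other members with values in the text. Alternatives were DESeq2 1.42.0, limma-voom (limma 3.58.1), other factors and filters, the replicate block and leaving libraries out.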

Additional observations from a re-analysis of the deposited data

How the results depend on the processing

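No member was called higher under any of the 21 alternatives. None was called lower in the 15 alternatives run on all 6 libraries or with 1 library left out, among the 36 members with an adjusted p for DESeq2. Most of these 15 called at most 1 of all IDs, so a count of 0 members carries no weight there. The exceptions were DESeq2, sample quality weights and leaving out untreated replicate 2. They called 0.119%, 1.97% and 1.26% of the IDs with an adjusted p higher and 0.341%, 3.03% and 2.2% lower. Among 6 further alternatives on the 5 libraries without untreated replicate 2, limma-voom called 3 lower, beside 3.94% of IDs. DESeq2 and the removal of IPA replicate 1 called 1 each, beside 3.86% and 3.05% of the IDs with an adjusted p. With the replicate block, which called 0 of all IDs, counts of members called stayed at 0 and the median log2 fold change was -0.50. Between samples that share a number, deviations from the group means had correlations of -0.0771, 0.0183 and 0.161. Only the last passed the minimum of 0.1 set for pairing, and the numbers were not taken to pair samples. As untreated replicate 2 enters the untreated mean, these correlations cannot decide whether samples were paired.

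The median log2 fold change moved from -0.80 to -0.0587 with sample quality weights, and those of complexes II, III, IV and V to -0.034, -0.0858, -0.19 and -0.0402. With 1 library left out it ran from -0.97 to -0.0725 for all members, -0.35 to -0.0891 for complex II, -0.90 to -0.0389 for complex III, -1.62 to -0.18 for complex IV and -0.89 to -0.0506 for complex V; each end near 0 came from leaving out untreated replicate 2. On the 5 libraries it was -0.12 with limma-voom and 0.0316 with library totals, where the median of all IDs was 0.062.

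Of 420 values of the 20 named members under alternatives, 35 had the opposite sign, and 5 others passed the threshold, all for Cox6c, Atp5h and Atp5j2. Over all 6 libraries, sample quality weights gave -0.0457 for Atp5b, 0.22 for Atp5e, 0.0441 for Atp5g2, 0.0402 for Atp5g3, 0.0312 for Cox4i1 and -0.00122 for Cox8a. Atp5b was at -0.0185 under upper-quartile scaling, and under the 1 CPM filter it was -0.012. Library totals and the replicate block gave 0.20 and 0.0401 for Atp5g2 (0.0144 with no filter), 0.18 and 0.0169 for Sdha, and 0.16 and 0.0205 for Sdhc. With 1 library left out, Atp5b ran from -0.11 to 0.19, Atp5e from -3.07 to 0.35, Atp5g2 from -0.0642 to 0.0895, Atp5g3 from -0.83 to 0.0479, Cox4i1 from -1.63 to 0.024, Sdha from -0.0885 to 0.0666 and Sdhc from -0.14 to 0.13. On the 5 libraries, library totals gave 0.0899 for Atp5g2, 0.0316 for Cox7a2l and 0.0636 for Sdha. Atp5g2 was at 0.00817 with DESeq2 and 0.0105 with RLE factors, and Atp5g3 at -0.00845 and Cox8a at -0.0373 with limma-voom. Without IPA replicate 1 as well, Atp5g2 was at 0.0237 and Cox8a at -0.0771. The cause of these shifts was not tested.

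The share of counts differed by -0.133 percentage points over all 6 libraries, by -0.197 outside the 50 most abundant IDs by 0.00992 without untreated replicate 2 and by -0.0145 with both changes, the last computed after the data were seen. Counts of all IDs called higher and lower went from 0 and 0 to 22 and 63 with DESeq2 and 492 and 755 with sample quality weights. Without untreated replicate 2 they went from 322 and 564 to 634 and 661 with DESeq2, 660 and 1009 with limma-voom and 719 and 763 without IPA replicate 1. Comparisons with all 6 libraries are limited by the spread that untreated replicate 2 brings, and IPA replicate 1 by its depth.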
